A study of Mus musculus with 24 samples.

Results

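The conversion of mouse embryonic stem cells (ESCs) of the Nanog tet-off line to expanded potential stem cells was measured by poly(A) RNA-seq in 4 libraries, 2 of ESCs and 2 of L-EPSCs without doxycycline (Dox), of 24 libraries in the series. The libraries were chosen by their labels alone, with no measured value. The series covers J1 ESCs and the EPSCs made from them (D-EPSCs and L-EPSCs) and 3 tet-off lines, named for Oct4, Sox2 and Nanog, each as ESCs and as L-EPSCs with and without Dox, with 2 replicates in each group. In the Nanog-cKO line (NgcKO) the endogenous Nanog gene is deleted and the cells carry a Nanog transgene, which Dox shuts off. The transgene was on in both the ESCs and the L-EPSCs compared here. The study could still maintain ESCs and L-EPSCs of this line after Dox, with smaller and fewer colonies. The ages and passages of the lines, the promoter that drives the transgene and whether each line is a single clone are not given in the sources used here. L-EPSCs were grown with KnockOut Serum Replacement (20%), LIF (1000 units per ml) and 6 small molecules, the GSK3 inhibitor CHIR99021 (3 µM), the MEK inhibitor PD0325901 (1 µM), the SRC-family inhibitor A-419259 (0.3 µM), the tankyrase inhibitor XAV939 (5 µM), JNK inhibitor VIII (4 µM) and the p38 inhibitor SB203580 (10 µM), and for several passages without feeder cells before RNA was taken. The ESC medium is described for J1, where it holds serum, LIF, CHIR99021 and PD0325901, and not for the tet-off lines, so which components of the medium changed at conversion in the Nanog line is not known here. The labels do not say whether the 2 libraries of a group come from separate cultures or separate conversions, and p-values below then measure only the spread between these libraries.

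ESCs hold pluripotency through a circuit of transcription factors around Oct4 (Pou5f1), Sox2 and Nanog. Naive factors such as Esrrb, Klf4 and Tbx3 hold the preimplantation state, and formative genes such as Otx2, Fgf5 and Dnmt3b come on as cells leave it. FGF4 acts through MEK and ERK to move cells out of the naive state, and ERK switches on its own brakes (the Sprouty, Spred and Dusp genes). L-EPSC medium adds inhibitors of further kinases and of Wnt signaling to that setting and was designed to widen the developmental potential of the cells toward extraembryonic lineages.

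All values are normalized counts, that is, reads on a gene divided by the size factor of the library. Reads on genes were between 11077332 and 12329090 in the 4 libraries, against 10807631 to 14798984 over the 18 tet-off libraries, and 5.58% to 6.6% of them fell on the 10 most abundant genes. The 2 libraries of a group differed by more than counting noise in both groups (mean chi-square per gene of 1.83 in ESCs and 1.97 in L-EPSCs, over genes with at least 100 reads), so neither pair looked like 1 library deposited again, and each library was counted as a replicate. Markers of pluripotent cells were high in all 4 libraries, Pou5f1 between 10877 and 15077 and Tdgf1 between 3531 and 8101. Of the 10 macrophage genes measured, Lyz2, Tyrobp, Adgre1 and Ccl6 had no read in the 4 libraries, and Cd68 made up most of the summed level of 758 and 804 in ESCs, which was 454 and 470 in L-EPSCs. The 15 fibroblast genes measured summed to 1658 and 1676 in ESCs and to 1146 and 1188 in L-EPSCs. Among the defining fibroblast markers, Postn had no read and Col1a1 had 82.6 and 122 in ESCs against 54.3 and 43.8 in L-EPSCs. In that list 5 genes were called lower and 1 (Pdgfrb) higher, and 3 macrophage genes (Mrc1, Spi1 and Cd68) were called lower. Of the 10 macrophage genes, 7 had 3 reads or fewer in each of the 4 libraries. In a fit of the 4 libraries alone 1 macrophage gene was lower, since Mrc1 and Spi1 missed the p threshold (limma adjusted p = 0.0703 and 0.0673). Col1a1 missed it in that fit too (limma adjusted p = 0.112). In bulk RNA, fewer cells of a type and less RNA per cell cannot be told apart.

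The first question was how far the transcriptome of the Nanog line moved at conversion. Of 24007 genes tested, limma called 26.9%, with 2928 (12.2%) higher after conversion and 3529 (14.7%) lower. A call needed a change beyond 0.6 on the log2 scale at an adjusted p under 0.05. Both groups have 2 libraries, so an exact permutation test of a single gene could not go below p = 0.333, and the calls rest on the spread pooled over all 18 tet-off libraries. The edgeR quasi-likelihood test on the recovered reads called 3066 genes higher and 3146 lower, and 5713 genes were called in the same direction by both tools. The mean distance between an ESC and an L-EPSC library of the line (Euclidean, over log2 values of the genes tested) was 176.1, against 105.9 between the ESC replicates and 104.4 between the L-EPSC replicates. Formative genes and ERK feedback genes had the lowest medians among the 33 gene lists, and fatty acid synthesis, germline, cholesterol and ATF4 target genes the highest. The median log2 fold change over all genes tested was 0.

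**Figure D1:**
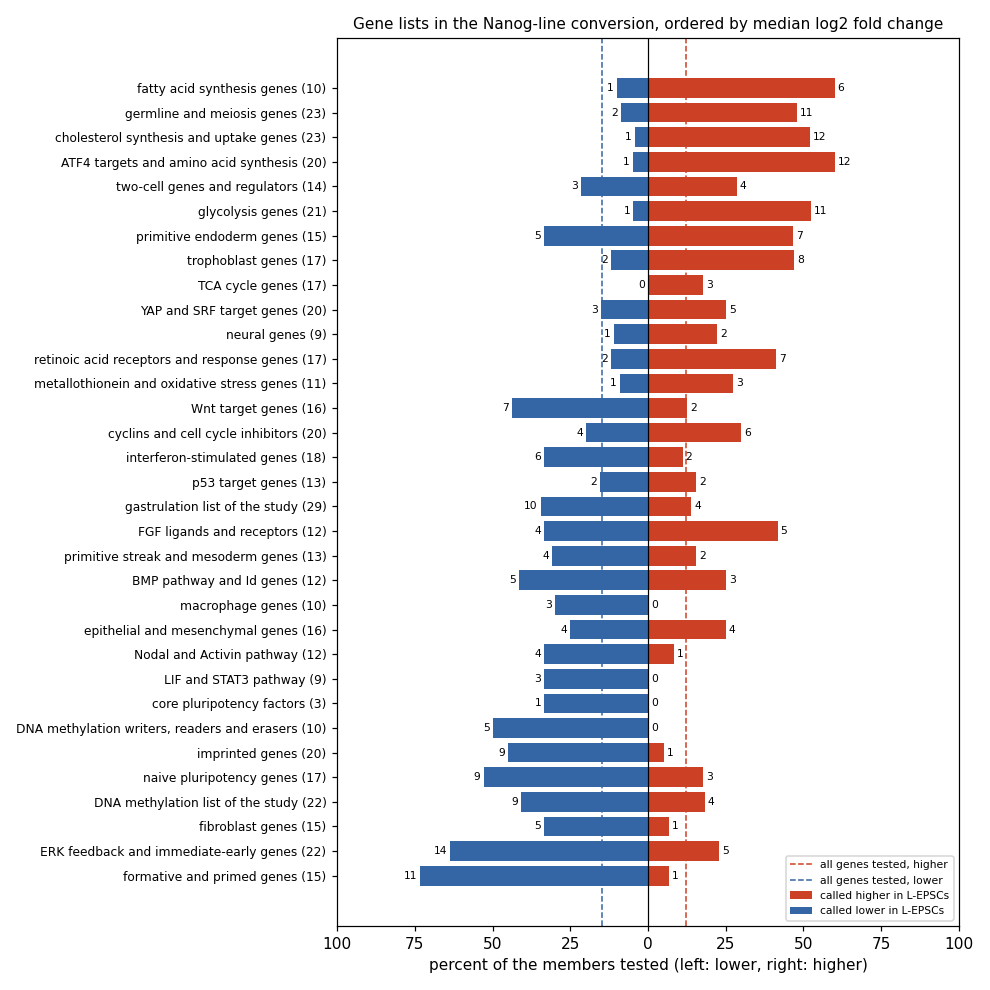
Share of the tested members of each of 33 gene lists called higher (right) or lower (left) in L-EPSCs of the Nanog line, in percent, with the number of genes at each bar, the number tested in parentheses and the shares over all 24007 genes as dashed lines (12.2% higher, 14.7% lower). Lists are ordered by their median log2 fold change, with formative genes (11 of 15 lower) at the bottom and fatty acid synthesis genes (6 of 10 higher) at the top.

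Calls were not spread evenly over the chromosomes. On chromosome 6, 28.1% of the 1150 genes tested were called higher and 6.61% lower, and on chromosome 8, 28.5% of 1142 genes were higher and 7.79% lower, against 8.35% to 13.7% higher and 13.6% to 18.7% lower on the other autosomes. The median log2 fold change of genes that averaged at least 100 normalized counts was 0.65 on chromosome 6, where 376 of 461 such genes were above 0, and 0.51 on chromosome 8, where 433 of 563 were. On the other autosomes and the X chromosome it lay between -0.18 (chromosome 12) and 0.072 (chromosome 10). For comparison, a change of 1.5-fold is 0.585 on the log2 scale. Each of the 4 pairs of single libraries gave a median between 0.618 and 0.643 for chromosome 6 and between 0.493 and 0.51 for chromosome 8. The shift ran along the whole of both chromosomes, with medians between 0.386 and 0.764 in windows of 25 Mb on chromosome 6 and between 0.413 and 0.648 on chromosome 8. In the Oct4 and Sox2 lines the conversion medians were 0.09 and 0.086 on chromosome 6 and 0.13 and 0.18 on chromosome 8. The 2 chromosomes differed in where the gap lay: Nanog-line ESCs were below the ESCs of the other lines on chromosome 6 (median log2 difference -0.53) while the L-EPSCs were near theirs (0.084), whereas on chromosome 8 the ESCs were near (0.088) and the Nanog-line L-EPSCs were above (0.38). On chromosome 12, Nanog-line ESCs were above the other ESCs by a median of 0.39. DNA copy number was not measured, and the part of a change in chromosome number in these medians was not tested. Without chromosomes 6 and 8, 25.9% of 21715 genes were called, 2273 (10.5%) higher and 3359 (15.5%) lower, so that 649 of the higher calls (22.2%) lay on these chromosomes, which hold 9.55% of the genes tested. Genes below that lie on chromosome 6 or 8 are marked as such.

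**Figure D2:**
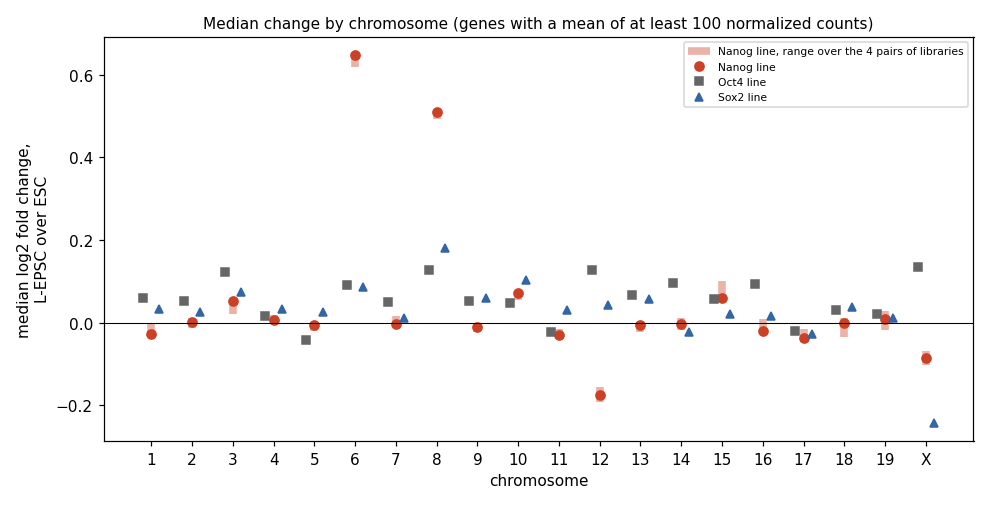
Median log2 fold change from ESC to L-EPSC by chromosome, over genes that averaged at least 100 normalized counts, for the Nanog line (circles), the Oct4 line (squares) and the Sox2 line (triangles). Bars span the medians of the 4 pairs of single Nanog-line libraries, which need not enclose the median over group means. In the Nanog line chromosomes 6 and 8 stand at 0.65 and 0.51, and all other chromosomes lie between -0.18 and 0.072.

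Nanog itself (ENSMUSG00000012396, NCBIM37 chromosome 6 from 122657507 to 122664651) was read at 14993 and 15127 in ESCs against 9119 and 8847 in L-EPSCs, which is -0.75 (SE 0.043, limma adjusted p = 3.7e-10) on the log2 scale. Nanog was called lower. Its endogenous gene, on chromosome 6, is deleted in this line, and the place of the transgene is not given in the sources used here. The chromosome 6 median therefore need not apply to these reads. In the same L-EPSCs with Dox Nanog was at 3166 and 3112, so most but not all Nanog reads were lost when the transgene was shut off. ESCs of the Oct4 and Sox2 lines had means of 9629 and 6944, and their L-EPSCs of 7530 and 7720, so the lines were farther apart as ESCs than as L-EPSCs. Reads of the transgene and of any transcript left from the deleted gene cannot be told apart in these gene counts. Pou5f1 had 14947 and 15077 in ESCs against 10949 and 10877 in L-EPSCs, and Sox2 had 6729 and 6619 in ESCs against 4849.6 and 4848 in L-EPSCs. Both differences, of -0.46 (SE 0.049, limma adjusted p = 7.6e-07) for Pou5f1 and -0.46 (SE 0.055, limma adjusted p = 2.9e-06) for Sox2 on the log2 scale, were short of the fold threshold.

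Of 17 naive pluripotency genes, 9 were called lower and 3 higher, with a median log2 fold change of -0.61. The values in parentheses from here on are log2 fold changes from ESC to L-EPSC with their SE and adjusted p. The orphan receptor Nr0b1, a partner of the Oct4 circuit, was 13-fold lower, from 2092 and 2128 to 153 and 171 (-3.69, SE 0.29, limma adjusted p = 1.9e-08). Tbx3 went from 7078 and 6829 to 1272 and 1226 (-2.48, SE 0.042, limma adjusted p = 1.5e-16), and Klf5 from 5584 and 5755 to 1191 and 1294 (-2.19, SE 0.056, limma adjusted p = 2.1e-14). Esrrb, a direct partner of Nanog in holding self-renewal, went from 17303 and 17950 to 8181 and 8093 (-1.11, SE 0.050, limma adjusted p = 2.0e-11). All 4 factors stayed above 150 in L-EPSCs. Gbx2 (-2.68), Zfp42 (-1.61, on chromosome 8), Tcl1 (-1.32), Klf4 (-1.17) and Tfcp2l1 (-0.61) were the other genes called lower. Tfcp2l1 lay at the fold threshold, was not called by edgeR and had -0.58 without L-EPSC replicate 1. Dppa3, a maternal factor, rose from 108 and 161 to 779 and 765 (2.54, SE 0.13, limma adjusted p = 1.2e-10), and it lies on chromosome 6. The AP-2 factor Tfap2c rose from 863 and 869.9 to 2452 and 2484 (1.51, SE 0.041, limma adjusted p = 5.4e-14), and Fbxo15, an Oct4 target, by 1.37. Nr5a2, Klf2 (chromosome 8) and Dppa5a (-0.39, -0.29 and 0.50) were among the 5 genes not called. With each chromosome centred on its own median, Klf2 was called lower (-0.74). Tbx3 fell further than in the other tet-off lines, with a difference between the log2 fold changes of -1.53 from the Oct4 line (limma adjusted p = 2.5e-11) and of -1.82 from the Sox2 line (limma adjusted p = 4.9e-12). Of all genes, 8.58% were called for the first difference and 9.16% for the other. For Klf5 these differences were -1.32 and -1.69 (limma adjusted p = 4.1e-09 and 3.6e-10).

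Formative and primed genes had the lowest median of the 33 lists, -1.99, with 11 of 15 called lower and 1 higher (Cldn6, 0.71). The Oct4 and Sox2 lines each had 10 genes of the list lower, and 1 and 0 higher (15.4% and 11.6% of all genes were lower). For J1 cells the study reported Utf1 and Lin28a higher in EPSCs than in ESCs. Foxd3, a forkhead factor that cells need on leaving the naive state, was 41.1-fold lower, at 924 and 873 in ESCs against 21.3 and 22.4 in L-EPSCs (-5.30, SE 0.59, limma adjusted p = 1.3e-06). Utf1, a chromatin factor of pluripotent cells, had 6870.3 and 6871 in ESCs against 1187 and 1184 in L-EPSCs (-2.53, SE 0.061, limma adjusted p = 1.1e-14). The ESC and L-EPSC libraries were far apart for both. The let-7 blockers Lin28a and Lin28b fell too (-1.55 and -2.12), as did Otx2 and Cdh2 (-1.93 and -2.03). Fgf5, a hallmark of formative cells, had only 5 and 7 reads in ESCs and 0 in both L-EPSC libraries, at least 2.09-fold lower against a floor of 3 reads per library. The conversion of Foxd3 differed from that in the Sox2 line by -4.51 (SE 0.83, limma adjusted p = 6.4e-04) and from that in the Oct4 line by -2.7 (SE 0.83, limma adjusted p = 0.024). The difference from the Oct4 line was past the threshold only with all libraries. Without any 1 of the 8 libraries it had adjusted p-values between 0.0634 and 0.136, and with a pseudocount of 0.1 both differences missed the threshold (limma adjusted p = 0.285 and 0.0605).

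Genes of the DNA methylation machinery moved the same way, with 5 of 10 called lower and none higher (median -0.54). The de novo methyltransferase Dnmt3b had 3544 and 3613 in ESCs against 897 and 901 in L-EPSCs (-1.99, SE 0.048, limma adjusted p = 9.7e-15). Its cofactor Dnmt3l had 3649 and 3593 in ESCs against 615 and 587 in L-EPSCs (-2.59, SE 0.049, limma adjusted p = 5.6e-16), which differed from the conversion of the Oct4 line by -2.05 (limma adjusted p = 5.5e-12) and of the Sox2 line by -1.26 (limma adjusted p = 2.2e-09). The dioxygenases that oxidize 5-methylcytosine fell alongside, Tet1 from 12137 and 12104 to 3614 and 3754 (-1.72, SE 0.052, limma adjusted p = 1.8e-13) and Tet2 from 8068 and 8239.7 to 1576 and 1493 (-2.41, SE 0.040, limma adjusted p = 1.5e-16). Mettl4, an adenine methyltransferase, was the fifth (-0.78). The maintenance enzyme Dnmt1 had 7072 and 7198 in ESCs against 8779 and 8828 in L-EPSCs (0.30), short of the fold threshold. Its partner Uhrf1 (-0.29) and the other de novo enzyme, Dnmt3a (-0.23), were short of it as well. A de novo writer, its cofactor and both main erasers were lower together, and the maintenance enzyme was not. The Oct4 and Sox2 lines had 5 and 6 genes of the list lower and 0 higher (15.4% and 11.6% of all genes were lower). For J1 cells the study reported the other direction, with Dnmt3a, Dnmt3b, Dnmt3l and Mettl4 higher in EPSCs than in ESCs. Among the 22 genes that the study listed under DNA methylation, 9 were called lower and 4 higher (Mov10l1, Ctcfl, Piwil4 and Fos). That list was chosen by the study on J1 libraries of the same series.

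ERK feedback and immediate-early genes had a median of -1.22 and did not move as a block. Of 22 genes, 14 were called lower, among them Sprouty, Spred and ETS genes that follow ERK activity, and 5 were called higher, among them the AP-1 genes Fos, Fosb and Jun. In a fit of the 4 libraries alone 3 were called higher, since Fosb and Ier3 missed the p threshold (limma adjusted p = 0.103 and 0.101). Spry4, a Sprouty inhibitor of receptor signaling, was 103-fold lower, with 3051 and 3017 in ESCs against 20.2 and 38.7 in L-EPSCs (-6.71, SE 0.24, limma adjusted p = 1.3e-12). Dusp6, the ERK phosphatase, had 813 and 743 in ESCs against 45.8 and 27.5 in L-EPSCs (-4.41, SE 0.36, limma adjusted p = 3.0e-08). Myc, which ERK and Wnt signals feed, had 768 and 846 in ESCs against 21.3 and 10.2 in L-EPSCs (-5.68, SE 0.26, limma adjusted p = 3.0e-11). Both L-EPSC libraries were below 50 for each of these. The ETS factors Etv1, Etv4 and Etv5 had log2 fold changes of -4.05, -2.40 and -2.32, Spry2 had -2.66, Spred1 -1.75 and Dusp4 (chromosome 8) -2.16. The early response genes Egr1, Ier2 and Junb fell as well (-1.24, -1.20 and -0.92), the last 2 of them on chromosome 8. In the other direction, Fos rose from 61.7 and 85.2 to 965 and 1013 (3.75, SE 0.14, limma adjusted p = 1.5e-12), Jun from 96.2 and 96.4 to 284 and 342 (1.68, SE 0.11, limma adjusted p = 1.7e-09), and Fosb from 0 and 4.48 to 82 and 36.7 (4.58, SE 0.69, limma adjusted p = 3.9e-05). Dusp5 and Ier3 were the other members called higher (0.83 and 0.90). The Oct4 line, where 28.4% of all genes were called, had 14 genes of the list lower (background 15.4%) and 4 higher (13%), and the Sox2 line, where 19.6% were called, had 14 lower (11.6%) and 3 higher (7.99%). J1 cells went the other way, in a table normalized on its own that allows no test against these values: Spry4 had 94.4 and 101 in J1 ESCs and 2872 and 2931 in J1 L-EPSCs, Dusp6 73.7 and 80.2 as ESCs and 1210 and 1168 as L-EPSCs, and Myc 196 and 247 as ESCs and 843 and 837 as L-EPSCs.

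**Figure D3:**
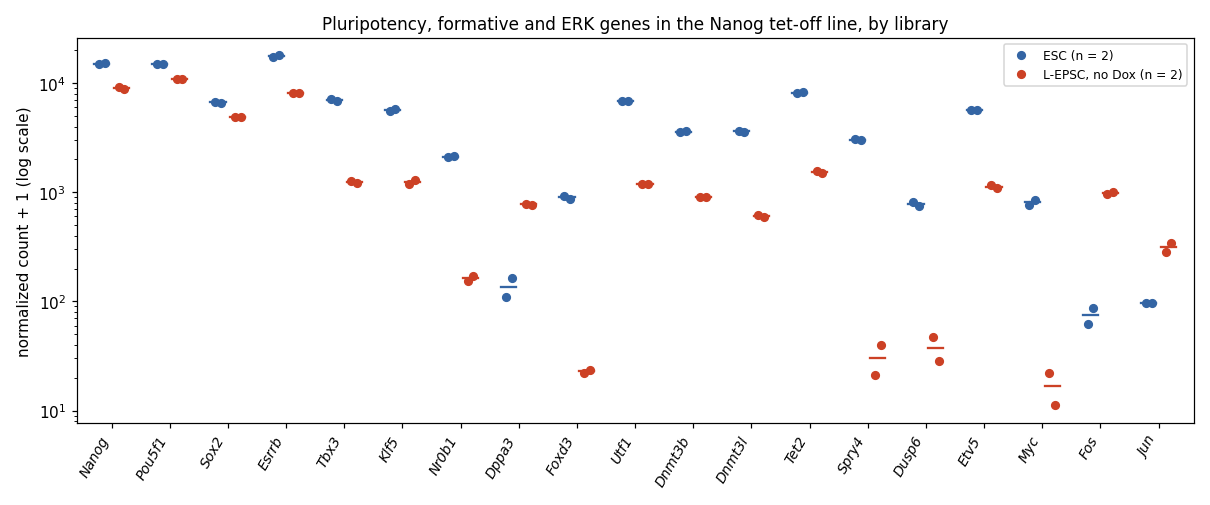
Normalized counts plus 1 (log axis) of pluripotency, formative, DNA methylation and ERK genes in the 2 ESC libraries (blue) and the 2 untreated L-EPSC libraries (red) of the Nanog tet-off line, each library a point and each group mean a bar. Spry4, Myc, Dusp6 and Foxd3 lie below 50 in L-EPSCs.

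Other signaling lists had fewer calls. Among 16 Wnt target genes 7 were lower and 2 higher, with a median of 0.095 near that of all genes. The lower ones included Axin2, the most general Wnt readout, from 328 and 293 to 135 and 116 (-1.30, SE 0.16, limma adjusted p = 5.5e-06), the effector Lef1 (-1.65), the secreted antagonist Notum (-1.45) and cyclin D1 (Ccnd1, -2.26), and Nkd1, a feedback inhibitor on chromosome 8, rose (1.81). Of 12 Nodal and Activin pathway genes 4 were lower and 1 higher. The lower genes were the ligands Nodal, from 1284 and 1306 to 379 and 399.7 (-1.73, SE 0.099, limma adjusted p = 3.4e-10), and Gdf3 (-1.71, chromosome 6), the co-receptor Tdgf1 (-1.14) and the inhibitory Smad7 (-1.97). The feedback inhibitors Lefty1 and Lefty2 were not called (-0.14 and -0.03), while both fell in the Oct4 line (log2 fold changes of -2.46 and -3.14). The difference between the conversions of these lines was 3.11 for Lefty2 (limma adjusted p = 4.2e-05) and 2.32 for Lefty1 (limma adjusted p = 0.0037). For both genes the conversion of the Nanog line was called above that of the Sox2 line as well.

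BMP signaling genes had 5 of 12 members lower and 3 higher (Bmp7, Msx1 and Msx2). Without L-EPSC replicate 1, or in a fit of the 4 libraries alone, 1 was higher, since Msx1 and Msx2 missed the p threshold (limma adjusted p = 0.105 and 0.104 without that library). The Id genes, direct BMP targets that block differentiation, all fell. Id1 went from 559 and 602 to 63.9 and 56.1 (-3.26, SE 0.16, limma adjusted p = 4.3e-11) and Id3 from 407 and 381 to 39.4 and 53 (-3.08, SE 0.21, limma adjusted p = 3.5e-09), and Id4 and Id2 had -2.0 and -0.94. The ligand Bmp4 fell from 499.8 and 426 to 131 and 107 (-1.95, SE 0.14, limma adjusted p = 4.1e-09), and Bmp7 rose from 139 and 128 to 406 and 406 (1.60, SE 0.096, limma adjusted p = 6.8e-10). In the LIF and STAT3 list 3 of 9 genes were lower, the receptor Lifr (-0.92) and the feedback gene Cish (-0.83) among them, and Stat3 and Socs3 were not called (0.17 and -0.32). Among FGF genes, with 5 of 12 higher and 4 lower, the receptors rose. Fgfr2 went from 60.6 and 69.5 to 259.9 and 271 (2.02, SE 0.10, limma adjusted p = 6.7e-11), Fgfr3 from 52.3 and 56.1 to 213 and 194 (1.89, SE 0.24, limma adjusted p = 6.9e-06) and Fgfr4 from 33.5 and 52.7 to 199 and 184 (2.16, SE 0.23, limma adjusted p = 9.7e-07), and Fgfr1, on chromosome 8, was at the threshold (0.60, 0.56 without ESC replicate 1 and 0.14 with each chromosome centred on its own median). Among the ligands Fgf8 rose (2.73) and Fgf17 and Fgf5 fell (-2.15 for Fgf17). Fgf8 missed the p threshold in a fit of the 4 libraries alone (limma adjusted p = 0.0508). The rise of Fgfr2 was larger than in the Oct4 line by 1.39 (limma adjusted p = 1.6e-06) and in the Sox2 line by 2.69 (limma adjusted p = 1.3e-09), and that of Fgfr4 by 1.79 and 1.62 (limma adjusted p = 6.4e-04 and 0.0015).

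Germline genes were among the strongest gains. Many of them are kept silent in ESCs by promoter methylation and by repressor complexes of E2F6 and MGA, which bind E2F sites (TTCCCGC) and E-boxes (CACGTG). Of 23 germline and meiosis genes 11 were called higher and 2 lower, with a median log2 fold change of 0.91. Dazl (ENSMUSG00000010592, NCBIM37 chromosome 17 from 50418719 to 50432924), an RNA-binding protein of germ cells, was 27.7-fold higher, at 99.3 and 84.1 in ESCs against 2601 and 2485 in L-EPSCs (4.78, SE 0.11, limma adjusted p = 5.3e-15). Stra8 (ENSMUSG00000029848, NCBIM37 chromosome 6 from 34870163 to 34889342), which retinoic acid induces at the entry to meiosis, was 31.1-fold higher, at 72.1 and 75.1 in ESCs against 2305 and 2279.7 in L-EPSCs (4.94, SE 0.090, limma adjusted p = 3.4e-16), and it lies on chromosome 6. Rec8, the cohesin of meiotic chromosomes, had 206 and 201 in ESCs against 745 and 724 in L-EPSCs (1.85, SE 0.065, limma adjusted p = 1.0e-12). Mov10l1, a helicase of the piRNA pathway, had 83.6 and 89.7 in ESCs against 342 and 372 in L-EPSCs (2.03, SE 0.12, limma adjusted p = 4.9e-10), and Piwil4, the PIWI protein of fetal germ cells, 11.5 and 5.61 in ESCs against 85.2 and 106 in L-EPSCs (3.40, SE 0.62, limma adjusted p = 2.6e-04). Hormad1, which marks unsynapsed chromosome axes, had 22 and 21.3 in ESCs against 143 and 161 in L-EPSCs (2.75, SE 0.16, limma adjusted p = 3.6e-10). Stk31 (chromosome 6), Taf7l and Slc25a31 rose with log2 fold changes of 1.53, 1.56 and 1.64. Asz1, on chromosome 6, had no read in ESCs but 24.5 and 29.6 in L-EPSCs, at least 8.32-fold higher, and Rhox2a had none and 14.9 and 10.2, at least 3.86-fold higher. The Rhox2 genes are near-identical copies, so the count of Rhox2a is uncertain. Mael, a further piRNA factor, fell from 344 and 322 to 103 and 107 (-1.65, SE 0.12, limma adjusted p = 9.3e-09) and Sycp2, of the synaptonemal complex, fell as well (-1.20). Piwil2 (170.4 and 149 in ESCs, 179 and 205 as L-EPSCs), Syce1 and 8 others were not called, so the list did not rise as a whole. Of the 23, 3 lie on chromosome 6, and with each chromosome centred on its own median the counts were again 11 and 2. In the Oct4 and Sox2 lines 11 genes of the list were called higher too, and 3 and 4 lower. Of all genes, 13% and 7.99% were higher in these lines and 15.4% and 11.6% lower. The rise of Stra8 was larger in the Nanog line by 2.03 (SE 0.13, limma adjusted p = 7.0e-09) than in the Oct4 line and by 2.00 (SE 0.13, limma adjusted p = 1.1e-08) than in the Sox2 line, and that of Dazl differed from neither by more than 1 (0.03 and 0.57, limma adjusted p = 0.94 and 0.011).

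**Figure D4:**
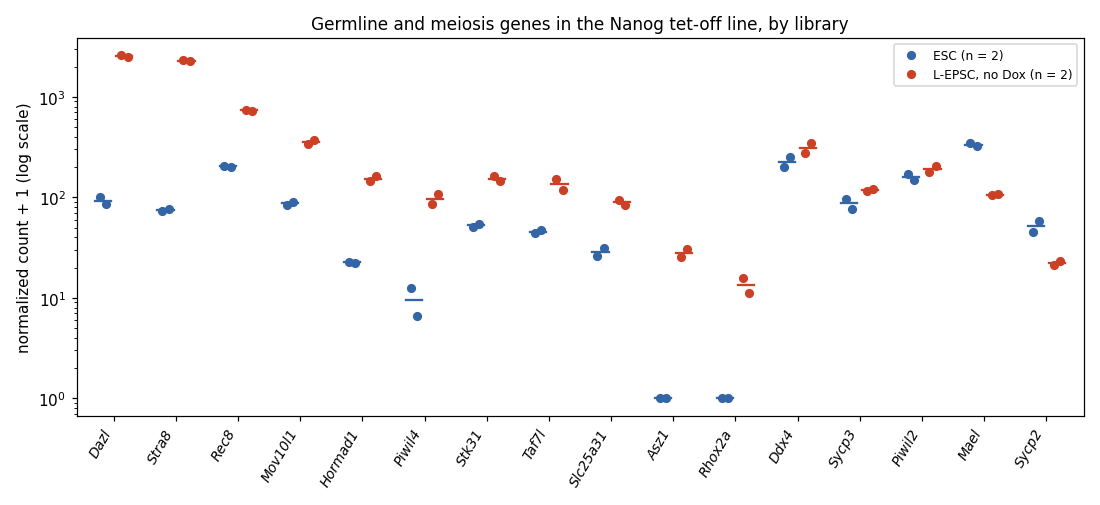
Normalized counts plus 1 (log axis) of 16 germline and meiosis genes in the 2 ESC libraries (blue) and the 2 untreated L-EPSC libraries (red) of the Nanog tet-off line, each library a point and each group mean a bar. Dazl and Stra8 pass 2000 in L-EPSCs from below 100 in ESCs, Asz1 and Rhox2a start from no read, and Mael and Sycp2 are lower in L-EPSCs.

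The promoters of 5 of these genes are shown to compare the genes that rose with Mael, which fell. They span 250 bases before to 50 after the start of the gene in RefSeq on GRCm38.p6, written 5′ to 3′ on the strand of the gene, with CACGTG and with TTCCCGC or its complement in capitals: Dazl at chr17:50293571-50293870 (minus strand), Stra8 at chr6:34920698-34920997 (plus), Hormad1 at chr3:95559427-95559726 (plus, the first of 2 entries), Slc25a31 at chr3:40708621-40708920 (plus) and Mael at chr1:166238695-166238994 (minus).
Dazl: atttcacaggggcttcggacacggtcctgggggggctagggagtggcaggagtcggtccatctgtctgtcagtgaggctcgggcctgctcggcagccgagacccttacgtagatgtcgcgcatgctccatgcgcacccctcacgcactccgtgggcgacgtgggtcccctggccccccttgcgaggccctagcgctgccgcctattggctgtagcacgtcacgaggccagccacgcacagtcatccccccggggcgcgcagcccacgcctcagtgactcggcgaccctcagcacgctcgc
Stra8: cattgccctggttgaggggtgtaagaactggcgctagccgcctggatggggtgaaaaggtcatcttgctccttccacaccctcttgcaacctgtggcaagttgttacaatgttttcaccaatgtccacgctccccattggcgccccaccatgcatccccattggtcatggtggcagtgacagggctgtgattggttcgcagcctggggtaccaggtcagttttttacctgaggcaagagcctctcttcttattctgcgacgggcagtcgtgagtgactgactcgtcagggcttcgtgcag
Hormad1: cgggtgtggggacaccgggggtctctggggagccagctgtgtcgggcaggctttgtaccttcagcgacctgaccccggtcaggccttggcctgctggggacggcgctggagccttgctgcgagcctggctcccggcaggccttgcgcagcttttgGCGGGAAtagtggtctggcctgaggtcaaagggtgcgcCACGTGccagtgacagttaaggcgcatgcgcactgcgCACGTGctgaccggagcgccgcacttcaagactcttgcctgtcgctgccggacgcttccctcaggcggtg
Slc25a31: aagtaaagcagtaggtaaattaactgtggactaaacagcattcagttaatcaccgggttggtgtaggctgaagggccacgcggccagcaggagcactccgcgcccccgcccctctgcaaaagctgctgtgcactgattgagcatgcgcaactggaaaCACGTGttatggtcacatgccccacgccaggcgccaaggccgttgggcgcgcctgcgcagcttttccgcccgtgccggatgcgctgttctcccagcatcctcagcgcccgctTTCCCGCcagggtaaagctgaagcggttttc
Mael: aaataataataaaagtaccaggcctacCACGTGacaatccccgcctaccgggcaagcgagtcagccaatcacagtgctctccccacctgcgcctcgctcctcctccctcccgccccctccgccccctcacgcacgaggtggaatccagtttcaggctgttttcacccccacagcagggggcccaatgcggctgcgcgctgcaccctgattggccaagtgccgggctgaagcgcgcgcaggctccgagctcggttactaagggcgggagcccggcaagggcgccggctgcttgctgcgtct
CACGTG reads the same on both strands and was in 7.15% of all 32851 promoters in the table, and TTCCCGC, on either strand, was in 4.6%. The motifs do not overlap each other in these windows. Of 22 germline genes with a promoter entry, 11 held CACGTG, namely 5 of the 11 that rose (Hormad1, Mov10l1, Slc25a31, Stk31 and Taf7l), 1 of the 2 that fell (Mael) and 5 of the 9 that were not called. TTCCCGC was in 2 of the 11 that rose and 3 of the 9 not called. Both motifs were thus found among genes that rose and genes that were not called, and Dazl and Stra8, the most abundant of the genes that rose, held neither in this window. The Dazl window holds 28 CG dinucleotides and that of Stra8 10, against a median of 7 over all promoters. The medians were 18 over the germline genes that rose, 17 over those that fell and 23 over those not called, so promoters of germline genes that did not rise held as many.

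Retinoic acid genes had 7 of 17 members higher and 2 lower (4 lower without L-EPSC replicate 2). The binding proteins Crabp1 and Crabp2 went from 204 and 228 to 545 and 509.8 (1.29, SE 0.25, limma adjusted p = 3.8e-04) and from 93.1 and 86.3 to 436 and 428 (2.26, SE 0.12, limma adjusted p = 1.6e-10). The degrading enzymes Cyp26a1 and Cyp26b1 rose from low levels (3.14 and 3.36 to 24.5 and 17.3 for Cyp26a1). Cyp26b1 lies on chromosome 6. Of the receptors, Rarg and Rxrg went the other way. Rarg fell from 3030 and 3116 to 874 and 962 (-1.74, SE 0.075, limma adjusted p = 1.2e-11) and Rxrg from 76.3 and 77.4 to 2.13 and 0 (-5.46, SE 0.77, limma adjusted p = 1.7e-05). Rara was not called (0.08). For J1 cells the study reported Rara, Rarg, Rxrb and Rxrg transcripts higher in EPSCs than in ESCs. Crabp2 had -0.42 and 0.04 in the Oct4 and Sox2 lines, and the conversion of the Nanog line differed from theirs by 2.68 and 2.21 (limma adjusted p = 8.2e-09 and 8.4e-08).

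Genes of the 2-cell embryo (2C genes) and their regulators gave 4 higher and 3 lower of 14. In a fit of the 4 libraries alone 0 were called higher, and Zscan4c missed the p threshold (limma adjusted p = 0.0537). The activators of the 2C program Dppa2 and Dppa4 fell, Dppa2 from 2116 and 1991 to 150.2 and 181 (-3.63, SE 0.089, limma adjusted p = 1.4e-14) and Dppa4 (-1.0), as did Zfp281 (-0.81). Zscan4c, a marker of the 2C-like state, went from 13.6 and 14.6 to 32 and 34.7 (1.19, SE 0.28, limma adjusted p = 0.0026), whereas the other 2 Zscan4 genes measured were not called. The 3 remaining gains were in the Usp17l family, with values below 50. Both families hold near-identical copies whose reads counting may split, so these values are uncertain. In the Oct4 line Zscan4c went from a mean of 334 to 39.7 and in the Sox2 line from 102 to 9.43. The Nanog-line ESCs thus started from a lower level, and the difference of the conversions was 4.23 and 4.53 (limma adjusted p = 7.4e-07 and 4.1e-07).

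Lineage genes were mostly low in both groups. Of 17 trophoblast genes 8 were higher and 2 lower (median 0.61). Gata3 went from 4.18 and 1.12 to 19.2 and 25.5 (2.80, SE 0.31, limma adjusted p = 1.1e-06), Gata2 (chromosome 6) from 32.4 and 29.1 to 82 and 79.5, Esx1 from 91 and 119 to 283 and 286 and Krt19 from 53.3 and 84.1 to 148 and 155. The imprinted gene Peg10, on chromosome 6, fell from 2827 and 2713 to 803 and 769.8 (-1.82, SE 0.025, limma adjusted p = 1.9e-17). Of 15 primitive endoderm genes 7 were higher and 5 lower (median 0.70, and 3 lower without L-EPSC replicate 2). Gata6 went from 15.7 and 13.5 to 63.9 and 67.3 (2.10, SE 0.16, limma adjusted p = 1.0e-08) and Gata4 from 38.7 and 68.4 to 159.8 and 182 (1.71, SE 0.40, limma adjusted p = 0.0023, and adjusted p = 0.0606 without ESC replicate 1), whereas the laminins Lama1 and Lamb1 fell (-1.94 and -0.88). Of the matrix genes in that list, Serpinh1, a collagen chaperone, rose from 281 and 276 to 1374 and 1422 (2.32, SE 0.052, limma adjusted p = 4.4e-15), and Col4a1 and Col4a2 (1.07 and 1.44) lie on chromosome 8. Matrix genes of the list were thus found on both sides. Of 13 primitive streak and mesoderm genes 2 were higher (Fgf8 and Gsc) and 4 lower. In a fit of the 4 libraries alone 2 were lower and 0 higher, since Fgf8 and Gsc missed the p threshold (limma adjusted p = 0.0508 and 0.0523). Of 9 neural genes 2 were higher (Nes, 1.36, and Zic1, 2.66) and 1 lower (0 lower by edgeR). In a fit of the 4 libraries alone 0 were lower and 1 higher, since Zic1 missed the p threshold (limma adjusted p = 0.0923). The study's gastrulation list had 4 of 29 higher and 10 lower, and it too was chosen on J1 libraries of the series. YAP and SRF targets had 5 of 20 higher (Tagln, 1.59, and Tead2, 0.77, among them) and 3 lower, and epithelial and mesenchymal genes 4 of 16 higher and 4 lower. Among the latter the epithelial factor Grhl2 fell from 376 and 489 to 65 and 60.2 (-2.76, SE 0.11, limma adjusted p = 7.1e-12), and E-cadherin (Cdh1, chromosome 8) rose (0.86) but was not called with each chromosome centred on its own median (0.40).

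Sterol and fatty acid synthesis genes were mostly higher. Of 23 cholesterol synthesis and uptake genes 12 were higher and 1 lower (Ebp, -0.65, which was not called without ESC replicate 2, at -0.59, or L-EPSC replicate 1, at -0.55), with a median of 0.89. The enzymes with the largest gains were Dhcr7, from 509 and 489 to 1836 and 1865 (1.89, SE 0.050, limma adjusted p = 3.4e-14), Msmo1 (chromosome 8), from 547 and 599 to 2012 and 2171 (1.87, SE 0.060, limma adjusted p = 3.9e-13), and Cyp51, from 582 and 553 to 1656 and 1718 (1.57, SE 0.066, limma adjusted p = 8.9e-12). The regulator Srebf2 went from 2859 and 2797 to 5325 and 5159 (0.89, SE 0.039, limma adjusted p = 1.5e-11), and Insig1, which holds it back, rose as well (1.34). Of the 12, 2 lie on chromosome 8, and none on chromosome 6. Of 10 fatty acid synthesis genes 6 were higher, led by the desaturases Scd1, from 1192 and 1278 to 3678 and 3914 (1.62, SE 0.040, limma adjusted p = 1.6e-14), and Scd2, from 5459 and 5327 to 11513 and 11793 (1.11, SE 0.028, limma adjusted p = 1.8e-14), with their regulator Srebf1 (1.40), while the synthase Fasn fell from 7234 and 7244 to 4487 and 4359 (-0.71, SE 0.040, limma adjusted p = 2.6e-10). The Oct4 and Sox2 lines had 9 and 8 cholesterol genes and 5 and 6 fatty acid genes called higher (13% and 7.99% of all genes were higher).

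Glycolysis genes were higher in 11 of 21 and lower in 1, with a median of 0.72, but 7 of the 21 lie on chromosome 6 or 8 and 6 of these 7 were among the 11. Ldhb (ENSMUSG00000030246, NCBIM37 chromosome 6 from 142438769 to 142456477), the lactate dehydrogenase subunit that favors pyruvate, was 12.4-fold higher, at 1051 and 1075 in ESCs against 13367 and 13089 in L-EPSCs (3.64, SE 0.030, limma adjusted p = 1.9e-20). Gapdh had 46662 and 48825 in ESCs against 89958 and 91810 in L-EPSCs (0.93, SE 0.024, limma adjusted p = 2.3e-14), and the glucose transporter Slc2a3 21866 and 21696 in ESCs against 37360 and 37519 in L-EPSCs (0.78, SE 0.017, limma adjusted p = 4.5e-15). These and Tpi1, Hk2 and Eno2 lie on chromosome 6. Elsewhere, hexokinase Hk1 rose from 1318 and 1354 to 5591 and 5530.1 (2.06, SE 0.042, limma adjusted p = 1.3e-15), the isomerase Gpi1 from 7253 and 7514 to 22222 and 21686 (1.57, SE 0.025, limma adjusted p = 1.2e-16), and Aldoc, Pfkp and Pgk1 had 1.81, 0.92 and 0.72. Pdk1, which closes the gate from pyruvate to the mitochondrion, fell from 2745 and 2853 to 1098 and 1097 (-1.35, SE 0.048, limma adjusted p = 1.0e-12). Pkm, Ldha, Eno1 and Pgam1 were between -0.20 and 0.11 and not called. With each chromosome centred on its own median, 7 glycolysis genes were higher and 2 lower, and Gapdh, Slc2a3, Tpi1 and Hk2 were no longer past the fold threshold (0.30, 0.15, 0.30 and 0.21). The rise of Ldhb exceeded that in the Oct4 line by 2.85 (SE 0.042, limma adjusted p = 1.1e-16) and that in the Sox2 line by 2.30 (SE 0.042, limma adjusted p = 4.4e-15). Nanog-line ESCs had less Ldhb than the other ESCs (means of 3591 in the Oct4 line and 3892 in the Sox2 line), and Nanog-line L-EPSCs more (6216 and 9855). Of 17 TCA cycle genes 3 were higher and none lower (median 0.45). Idh2 rose (0.99), and the other 2, Suclg1 and Suclg2, lie on chromosome 6 and were not called with each chromosome centred (0.079 and 0.33).

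ATF4 targets and amino acid synthesis genes, the readout of the integrated stress response, had 12 of 20 higher and 1 lower (Cth, -1.53), with a median of 0.86. The stress factor Ddit3 rose from 97.2 and 91.9 to 692 and 616 (2.77, SE 0.076, limma adjusted p = 5.3e-14), Chac1 from 37.6 and 28 to 109 and 134 (1.86, SE 0.33, limma adjusted p = 1.7e-04), Trib3 from 145 and 142 to 423 and 361 (1.44, SE 0.10, limma adjusted p = 4.5e-09) and Atf4 itself from 1778 and 1854 to 3090 and 2915 (0.72). Asns and Mthfd2, on chromosome 6, and Slc7a5, on chromosome 8, rose too (0.84, 1.74 and 1.11), Asns not with each chromosome centred (0.21). The list had 10 genes called higher in each of the Oct4 and Sox2 lines (13% and 7.99% of all genes were higher). Of 11 metallothionein and oxidative stress genes 3 were higher (Txnrd1, Gstm1 and, on chromosome 8, Hmox1, of which Txnrd1 and Hmox1 were not called with each chromosome centred) and Mt2, also on chromosome 8, lower (-0.71), with 2 lower without L-EPSC replicate 1. Of 13 p53 targets Cdkn1a and Gdf15 (chromosome 8) were higher and Perp and Plk2 lower. Of 18 interferon-stimulated genes 6 were lower, among them Irf9 and Ifitm3 (-0.67 and -0.84), and 2 higher, Bst2 on chromosome 8 (1.30) and Ifi27, which had no read in ESCs but 6.39 and 7.14 in L-EPSCs, at least 2.08-fold higher.

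Cell cycle genes that act at the G1 phase moved in opposite directions. Of the D cyclins, Ccnd1 fell from 1862 and 1849.7 to 367 and 405 (-2.26, SE 0.24, limma adjusted p = 9.0e-07) and Ccnd2 (chromosome 6) from 165 and 164 to 23.4 and 16.3 (-3.01, SE 0.27, limma adjusted p = 9.9e-08), and Ccnd3 was not called (-0.44). Their kinases Cdk6 (-2.48) and, at the fold threshold, Cdk4 (-0.62, and -0.59 without ESC replicate 2 or by edgeR) were lower as well. Of the 6 inhibitors of cyclin-dependent kinases in the list 5 rose, Cdkn1a from 595 and 693 to 1908 and 1897 (1.57, SE 0.064, limma adjusted p = 6.4e-12), Cdkn1b (chromosome 6) from 313 and 293 to 766 and 887 (1.44, SE 0.065, limma adjusted p = 2.1e-11), and Cdkn2a, Cdkn2b and Cdkn2c had 1.57, 1.61 and 2.07. In a fit of the 4 libraries alone Cdkn2b and Cdkn2c missed the p threshold (limma adjusted p = 0.0676 and 0.0899). The S and M phase genes Ccna2, Ccnb1, Cdk1 and Mki67 were between -0.38 and 0.27 and were not called. All told, 6 of 20 genes of the list were higher and 4 lower.

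Imprinted genes, which are expressed from 1 parental allele and read the state of imprint marks, were lower in 9 of 20 and higher in 1 (Sgce, 1.66, chromosome 6), with a median of -0.57. In a fit of the 4 libraries alone 0 were higher, since Sgce missed the p threshold (limma adjusted p = 0.0723). Zdbf2 had 2880.5 and 2940.5 in ESCs against 224 and 172 in L-EPSCs (-3.88, SE 0.11, limma adjusted p = 5.6e-14), Grb10 962 and 985 in ESCs against 124 and 118 in L-EPSCs (-3.00, SE 0.099, limma adjusted p = 5.1e-13), Igf2 330.4 and 309 in ESCs against 69.2 and 67.3 in L-EPSCs (-2.21, SE 0.086, limma adjusted p = 3.5e-12), and Meg3 3323 and 3381 in ESCs against 1183 and 1191 in L-EPSCs (-1.50, SE 0.049, limma adjusted p = 4.7e-13). Nnat, Dlk1 and Plagl1 fell too (-1.69, -1.85 and -1.33), though Dlk1 missed the p threshold in a fit of the 4 libraries alone (limma adjusted p = 0.0794). In the Oct4 line 8 genes of the list were higher and 4 lower (13% and 15.4% of all genes). The Sox2 line had 1 higher and 8 lower (7.99% and 11.6%). Meg3 went from a mean of 157 to 1566 in the Oct4 line and from 3949 to 3574 in the Sox2 line, and the conversion of the Nanog line differed from theirs by -4.81 and -1.35 on the log2 scale (limma adjusted p = 1.1e-16 and 9.9e-10).

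Beyond the lists, the 15 largest gains among genes with a mean of at least 100 called by both tools held 5 genes of the X chromosome and 4 of chromosomes 6 and 8. 1700013H16Rik, an X-linked gene, had 1.05 and 0 in ESCs against 194 and 212 in L-EPSCs (7.15, SE 0.25, limma adjusted p = 1.0e-12). Xlr3a, of an X-linked family with near-identical copies, had 6.27 and 2.24 in ESCs against 284 and 299 in L-EPSCs (5.91, SE 0.24, limma adjusted p = 6.6e-12), and the glutathione transferase Gstm3 3.14 and 7.85 in ESCs against 194 and 204 in L-EPSCs (5.05, SE 0.47, limma adjusted p = 1.6e-07). The meiotic kinase Aurkc (4.19), the tubulin Tuba3a (4.04, chromosome 6), Tex13b (3.58) and the deubiquitinase Usp26 (3.33) were among them, as were Dazl and Stra8. Hrc, Irx3 (chromosome 8), Rgcc and Pnma5 had log2 fold changes of 3.81, 3.55, 3.50 and 3.39. Of the 15 largest losses none lies on chromosome 6 or 8. Pla2g4e, a phospholipase, had 411 and 464 in ESCs against 2.13 and 3.06 in L-EPSCs (-6.94, SE 0.51, limma adjusted p = 8.9e-09). The H3K4 methyltransferase Setd1b had 1822 and 1815 in ESCs against 82 and 94.8 in L-EPSCs (-4.35, SE 0.074, limma adjusted p = 1.5e-16), and the gap junction protein Gja1 1547 and 1519 in ESCs against 84.1 and 67.3 in L-EPSCs (-4.33, SE 0.076, limma adjusted p = 2.3e-16). Enox1, Cpsf4l, Accsl, Crym, Dusp27, Slc6a15 and D630039A03Rik had log2 fold changes between -5.10 and -4.17.

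The most abundant genes called higher included Gapdh, Slc2a3, Fkbp4 and Serbp1 on chromosome 6, Rpl13 and Calr on chromosome 8, and Ftl1, Gpi1 and Txnip elsewhere. Txnip, an inhibitor of glucose uptake, went from 5220.5 and 5140 to 28161 and 28385 (2.45, SE 0.020, limma adjusted p = 1.9e-20), and Calr, a chaperone of the endoplasmic reticulum, from 9589 and 9239.6 to 26605 and 26996 (1.51, SE 0.025, limma adjusted p = 1.2e-16). The 10 most abundant genes called lower held the corepressor Trim28, from 30631 and 31389 to 11565 and 11538 (-1.42, SE 0.023, limma adjusted p = 1.2e-16), the large subunit of RNA polymerase II Polr2a, from 14872 and 14685 to 6500.5 and 6612 (-1.17, SE 0.032, limma adjusted p = 5.3e-14), Mybl2 (-1.16), the histone chaperone Nasp (-1.10), Srrm2 (-0.76), Esrrb and Nanog. Set and Eif4g2 were at the fold threshold (-0.63 and -0.60) and were not called by edgeR (-0.59 and -0.56). Without ESC replicate 1 Eif4g2 was at -0.58. With each chromosome centred, Gapdh, Slc2a3, Fkbp4, Serbp1 and Rpl13 were not called (0.15 to 0.34). mt-Cytb fell from 36958 and 37637 to 15409 and 15916 (-1.25, SE 0.060, limma adjusted p = 4.5e-11) and was the only gene called of the 13 mitochondrial protein genes. Of 79 ribosomal protein genes 75 were above 0 with a median of 0.31, and 6 were called higher and 1 lower. Median changes fell with the summed exon length of the gene, from 0.12 in the shortest quartile of protein-coding genes to -0.12 in the longest. This was so in the Oct4 line (0.14 and -0.078) and the Sox2 line (0.14 and -0.13). The part of exon length in the results was not tested.

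Of 11 Y-linked genes tested, 7 were called higher and 1 lower. Ddx3y had 114 and 109.9 in ESCs against 979.9 and 1001 in L-EPSCs (3.13, SE 0.093, limma adjusted p = 1.4e-13), Eif2s3y 181 and 179 in ESCs against 1189.8 and 1156 in L-EPSCs (2.7, SE 0.080, limma adjusted p = 1.5e-13), Uty 73.2 and 54.9 in ESCs against 337 and 336 in L-EPSCs (2.39, SE 0.19, limma adjusted p = 2.3e-08) and Kdm5d 0 and 1.12 in ESCs against 69.2 and 63.2 (5.53, SE 0.39, limma adjusted p = 4.4e-09). With Dox, Ddx3y was at 1795 and 1926 in L-EPSCs. In the Oct4 line Ddx3y went from 229 and 229 to 821 and 941 and in the Sox2 line from 14.1 and 15.6 to 292 and 329, and 6 of the 7 genes were called higher in all 3 lines. These levels are given as measured, and the share of cells with a Y chromosome was not measured.

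The conversion was next compared with that of the other tet-off lines, which share no library with it. Of the 2928 genes called higher in the Nanog line, 1552 (53%) were also higher in the Oct4 line, where they made up 49.8% of the higher calls, and 1012 (34.6%) in the Sox2 line (52.8% of its calls). For genes called lower the shares were 54.8% in the Oct4 line (52.2% of its calls) and 40.1% in the Sox2 line (50.7%). Over all genes tested, 13% were higher and 15.4% lower in the Oct4 line, and 7.99% higher and 11.6% lower in the Sox2 line. All 3 lines shared 883 higher and 1127 lower calls. Genes called in the opposite direction numbered 197 in the Oct4 line and 206 in the Sox2 line. Across 14173 genes with a mean of at least 10, the conversion had a Pearson's r of 0.659 with that of the Oct4 line and of 0.576 with that of the Sox2 line. Genes are not independent replicates, and the lines were prepared in the same table and scaling. In the test of the difference itself, the Nanog-line conversion was above that of the Oct4 line by more than 1 for 981 genes (4.09%) and below it for 1078 (4.49%), and for the Sox2 line the counts were 1211 (5.04%) and 988 (4.12%). It was above both for 454 genes (1.89%) and below both for 421 (1.75%). Chromosomes 6 and 8 held 24.2% of the 454 and 4.99% of the 421.

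Of the 8 largest differences above both lines, 6 were genes of chromosome 6. Trh, the precursor of thyrotropin-releasing hormone, was not called in the Nanog line (183 and 196 in ESCs, 121 and 135 as L-EPSCs, -0.56) and fell in the other lines from means of 1648 and 2946 to 48.2 and 101, with differences of 4.50 and 4.29 (limma adjusted p = 2.2e-10 and 3.9e-10). In the Nanog line Trh was called lower without ESC replicate 1 (-0.61), without L-EPSC replicate 2 (-0.64) and with each chromosome centred (-1.19). Tuba3a had 119 and 91.9 in Nanog-line ESCs and 1759.6 and 1724 in L-EPSCs against ESC means of 1398 and 499 and L-EPSC means of 1536 and 1370.2, so the lines differed in ESCs more than in L-EPSCs. St8sia1, a ganglioside synthase, rose from 62.7 and 75.1 to 262 and 277 while the Oct4 line went from 586 to 334 and the Sox2 line from 1012 to 676. Slc4a5 and 4933427D06Rik, with Ldhb the rest of the 6, had differences of 4.08 and 2.7 from the Oct4 line and 1.77 and 3.54 from the Sox2 line. Kirrel2 and Spn, on chromosome 7, had lower levels. The difference of Kirrel2 from the Sox2 line was 1.39 (limma adjusted p = 0.035), and it missed the p threshold without any 1 of the 8 libraries (0.0567 to 0.0901). Spn missed it with a pseudocount of 0.1 (0.0871 and 0.202). None of the 8 largest differences below both lines lies on chromosome 6 or 8. Pramel6, of the large PRAME family of early embryos, had 8.36 and 16.8 in ESCs against 17 and 7.14 in L-EPSCs of the Nanog line, whereas it went from 37.2 to 1048 in the Oct4 line and from 16.7 to 453 in the Sox2 line (differences -4.87 and -4.77, limma adjusted p = 4.9e-07 and 7.2e-07). Fbp2, a fructose bisphosphatase, fell from 188 and 187 to 14.9 and 14.3 and was higher in the other L-EPSCs (418 and 257) than in their ESCs (212 and 125). Grb10, the imprinted growth adaptor, fell in the Nanog line from a level that the other ESCs did not have (132 and 116), with differences of -4.62 and -4.25 (limma adjusted p = 1.6e-12 and 6.3e-12). Foxd3, Gja1, Arhgap30, C130073F10Rik and 2210409E12Rik made up the rest.

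**Figure D5:**
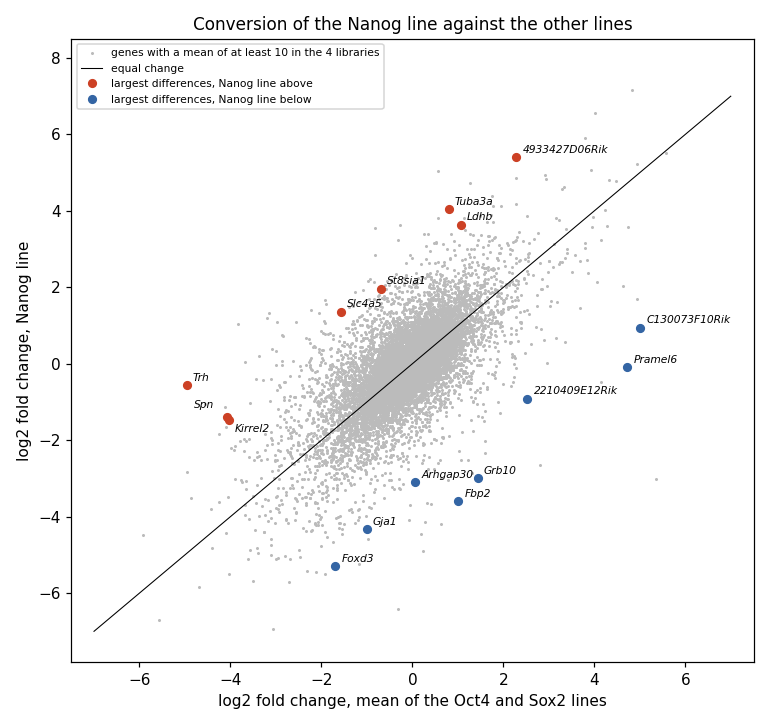
Log2 fold change from ESC to L-EPSC in the Nanog line (vertical axis) against the mean of the Oct4 and Sox2 lines (horizontal axis), for genes that averaged at least 10 normalized counts in the 4 Nanog-line libraries, with the 8 largest differences above (red) and below (blue) both lines named. The line marks equal change, and Trh (mean difference 4.40) and Pramel6 (-4.82) lie farthest above and below it among the genes named.

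At the ends of the conversion the line differed from the others both as ESCs and as L-EPSCs. Nanog-line ESCs were above the mean of the other ESCs by more than 1 for 911 genes (3.79%) and below it for 1600 (6.66%), 10.5% in all, and Nanog-line L-EPSCs were above the other L-EPSCs for 1163 (4.84%) and below for 1815 (7.56%), 12.4% in all. The mean distance between Nanog-line libraries and those of the Oct4 and Sox2 lines was 149.4 and 163.7 as ESCs and 164.8 and 158.1 as L-EPSCs, so that the distance to the Oct4 line was larger after conversion and that to the Sox2 line smaller. The L-EPSCs of the Oct4 and Sox2 lines were 122.7 apart.

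Dox in the L-EPSCs, which lowers Nanog after conversion, is given beside the conversion for a few genes only, since both comparisons use the same untreated L-EPSC libraries. With Dox 5.39% of genes were called beyond 1 on the log2 scale, 672 (2.8%) higher and 621 (2.59%) lower. Stra8 was at 8107 and 8341 with Dox (1.84, limma adjusted p = 3.7e-10) and Rec8 at 1611 and 1601 (1.13, limma adjusted p = 2.3e-09), so both stood above the untreated L-EPSCs, while Dazl was at 1493 and 1578 (-0.73) and not called. Dppa3 was at 2939 and 3090.3 (1.96, limma adjusted p = 1.5e-08). Esrrb was at 4376 and 4307 (-0.91) and Tbx3 at 2245 and 2215 (0.84), both short of the threshold. Spry4 was at 18.4 and 16.9 and Dusp6 at 29.9 and 39.3, still low, and Gja1 was at 333 and 314 (2.09, limma adjusted p = 1.4e-11). No autosome had a median Dox change beyond 0.0668 in either direction, chromosomes 6 and 8 included.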

How the data were processed

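Poly(A) RNA was made into libraries, sequenced as read pairs and processed by the authors, who trimmed reads with TrimGalore 0.6.4, aligned them to NCBIM37 (mm9) with STAR 2.7.9a, counted them per gene with htseq 0.11.2 and divided counts by DESeq2 size factors. The strand setting of htseq is not given in the sources used here, so overlapping antisense genes cannot be told apart. The deposited values are thus a signal (counts over size factor), and reads were recovered from the 18 tet-off columns, where dividing by the step of 1 read gave whole numbers for 100% of values (within 0.01 of a read plus 2e-05 of the reads). Columns of no sample of this series numbered 0.

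Genes with at least 2 reads in total (24007 of 25476) were tested on log2(value + 1) by limma 3.58.1 (R 4.3.3) with a mean-variance trend, in a single fit of 18 libraries and 9 groups (9 residual degrees of freedom), with Benjamini-Hochberg adjustment within each comparison. The threshold of a call was 0.6 on the log2 scale, or 1 for differences between lines and for Dox, with adjusted p under 0.05. Fold changes understate those of low genes on this scale. Differences between lines were interaction terms. Floors of 3 reads per library cover counting error only. edgeR 4.0.16 (quasi-likelihood) and DESeq2 1.42.0 were run on the recovered reads as alternatives, as were TMM scaling, median centring, a pseudocount of 0.1, a mean of at least 10, any read, a fit of only the groups compared, a block for the replicate number, the other fold threshold and leaving out each replicate. The pipeline was also run on counts simulated with the spread of these same libraries, which cannot speak to the spread between separate cultures. Positions came from the NCBIM37 annotation by gene ID (23832 of 24007 matched), since coordinates within the table are of a later build, and promoters from RefSeq (GRCm38.p6).

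The members, the 33 gene lists (486 genes) and the tests were chosen with earlier results of these data known. Genes were named if they are on a list or named by the paper for RNA, if among the 15 largest changes in each direction called by limma and edgeR with a mean of at least 100, the 8 largest differences from both other lines in each direction, or the 10 most abundant called genes in each direction. The J1 table was normalized separately and enters no test. Some genes of the lists and of these rules are counted but not reported here by name.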

Additional observations from a re-analysis of the deposited data

Results flagged for a closer look

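The conversion of the Nanog line differed from that of both other tet-off lines, in a test of the difference itself, for 454 genes above and 421 genes below, out of 24007. The genes with the largest differences are given with the conversion of the Nanog line minus the mean of the other lines, on the log2 scale. Above the other lines were Trh (4.40), Tuba3a (3.25), 4933427D06Rik (3.12), Slc4a5 (2.92), Spn (2.66), St8sia1 (2.65), Ldhb (2.57) and Kirrel2 (2.56). Below them were Pramel6 (-4.82), Fbp2 (-4.61), Grb10 (-4.43), C130073F10Rik (-4.06), Foxd3 (-3.60), 2210409E12Rik (-3.45), Gja1 (-3.33) and Arhgap30 (-3.16). Of the 8 above, 6 lie on chromosome 6, where the median of the Nanog-line conversion was 0.65. With each chromosome centred on its own median, a step chosen after seeing the data, all 16 kept both calls. Other alternatives did not spare them all. Without any 1 library Foxd3 missed the p threshold against the Oct4 line and Kirrel2 against the Sox2 line, and with a pseudocount of 0.1 Spn and Foxd3 missed it against both lines and Kirrel2 against the Sox2 line. Whether the lines passed through conversion at the same time, or as the same number of independent conversions, is not given in the sources used here.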

How the results depend on the processing

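The 6457 conversion calls became 4196 (1719 of them higher) with a fold threshold of 1, 6369 with the replicate number as a block (2882 higher, 3487 lower) and between 5894 and 6045 (2740 to 2844 higher, 3100 to 3305 lower) without any 1 replicate. Same-numbered libraries did not deviate together (r = -0.0279, 2 pairs), so the numbers pair nothing by this check, and the block left the counts against the Oct4 and Sox2 lines at 1963 and 2125. With a threshold of 0.6 the differences from the Oct4 line numbered 3536 (1724 above, 1812 below), those from the Sox2 line 3551 (1942 above, 1609 below), those between ESCs 3906 (1509 above) and those between L-EPSCs 4656 (2014 above). With a mean of at least 10, 571 genes were above the other ESCs. Without any 1 replicate the ranges were 1840 to 1962 (835 to 929 above, 940 to 1063 below) for the Oct4 line, 1994 to 2127 (1065 to 1136, 884 to 991) for the Sox2 line, 2130 to 2366 (832 to 846, 1296 to 1520) for ESCs and 2533 to 2829 (1058 to 1097, 1471 to 1737) for L-EPSCs.

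The direction of 3 named genes that were not called turned. Lefty2 had 0.0071 by edgeR, 0.0022 with TMM scaling and 0.059 without L-EPSC replicate 1, and Lefty1 had 0.20 without ESC replicate 1. Without any 1 replicate Lefty1 ranged from -0.48, Lefty2 from -0.13 and Pramel6 from -0.67. Pramel6 had 0.37 without ESC replicate 2 and 0.48 without L-EPSC replicate 2. Fits with a replicate left out assume that a lone library varies like the other groups. Over the alternatives listed with the processing, 60 results for named genes and 21 for named differences kept their direction and missed a threshold, against 3235 and 523 that kept both. The alternatives that left out chromosomes 6 and 8 or centred each chromosome were added after seeing the data. They ended the calls of 17 named genes, and centring added those of Klf2 and Trh. In a fit of the 4 libraries alone, 17 of 66 counts of genes called over the lists moved by over 1.5 times, all to fewer genes. Among them were 2C genes higher (4 to 0), trophoblast genes higher (8 to 4), retinoic acid genes higher (7 to 4) and interferon-stimulated genes lower (6 to 3). Depth limits values of a few reads, and with 2 libraries a group the p-values rest on a spread shared by 18 libraries.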
